A study of Mus musculus with 9 samples.

Results

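Myc and 35 genes of ribosome biogenesis were followed in activated mouse CD4+ T cells that had been given exosomes or buffer. The 36 genes were taken from a list of symbols, and all 36 were found among the 55536 genes of the count table and passed the filter on low counts, as did 14684 genes in all. Myc rose and Npm1, Ncl and Rrp12 fell in either exosome group against buffer, by 8.62% to 13.3%, and none of the 36 was called different between the exosome groups. These genes were 11.1% of the 36 in either comparison with buffer. Among genes at or above the level of the lowest member, 12.6% were called in 1 exosome group and 11.8% in the other. The calls of Myc and Rrp12 were lost when some single libraries were left out.

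Each of the 9 libraries came from splenic CD4+ T cells of wild-type male mice aged 6 to 12 weeks. All cells were activated by anti-CD3/anti-CD28 beads in medium with 5 ng/mL IL-2, and during these 18 h they received 1 of 3 additions. EKO_exo cells (3 libraries) received 2e+09 particles/mL of exosomes of ApoE-deficient BMDM (EKO-BMDM-exo in the labels, which give bone marrow as the source). WT_exo cells (3 libraries) received the same dose of exosomes of wild-type BMDM (WT-BMDM-exo), and PBS cells (3 libraries) received phosphate-buffered saline. The ApoE deficiency was thus in the exosome donors and not in the T cells. All T cells were activated, so no group here shows the genes at rest. The series describes its replicates as biological. Separate mice are not named in any label, and the p-values here reflect how far these samples vary, which may be technical.

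MYC is a transcription factor that binds DNA as a dimer with MAX, usually at the E-box CACGTG, and it rises when a T cell is activated through its antigen receptor. Ribosome biogenesis is among its best-known programmes: RNA polymerase I transcribes the precursor of the ribosomal RNAs in the nucleolus, small nucleolar ribonucleoproteins (snoRNPs) modify it, and large assemblies of processing factors cut it and fold it into the small and the large ribosomal subunit. A T cell that is about to divide makes many ribosomes, so these genes are used as a readout of growth.

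Library totals ran from 25792975 to 32971791 counts, and mitochondrial genes took 2.17% to 2.37% of them. Between 19038 and 19518 genes had a count in EKO_exo libraries, against 19989 to 20568 in the other libraries. EKO_exo replicate 3 stood alone on the first principal component of log2 CPM (counts scaled to a common library size), at 61.6 with the other 8 libraries between -16 and -3.8, and EKO_exo replicate 1 on the second, at -54 with the others between -7.1 and 14.2. EKO_exo replicate 2 lay lowest on the third, at -36.4 with the others between -12.9 and 25.3. Log2 fold changes in EKO_exo cells are therefore also given without replicates 1 and 3, for the called members and some other genes. That fit keeps only replicate 2 in the group and holds no spread among EKO_exo libraries, so its p-values are not given. Where a call in EKO_exo cells was lost without replicate 2 alone, this is said. T cell markers (8 of 8 detected) summed to 3467 to 3553 CPM in EKO_exo, 3250.0 to 3366 CPM in WT_exo and 3327 to 3409 CPM in PBS libraries. B cell markers (8 of 8 detected) summed to 609 to 616 CPM in EKO_exo, 512 to 576 CPM in WT_exo and 523 to 565 CPM in PBS libraries, nearly all from the immunoglobulin genes Ighm and Igkc, while Ms4a1 stayed at or under 0.819 CPM. Macrophage markers summed to 24.5 to 29.6 CPM in EKO_exo, 22.6 to 29.9 CPM in WT_exo and 19.2 to 29.8 CPM in PBS libraries, with Adgre1 at or under 0.106 CPM. CD8 T cell markers (2 of 2 detected) were low but did not overlap with PBS, summing to 9.57 to 10.4 CPM in EKO_exo, 8.31 to 10.2 CPM in WT_exo and 11.2 to 12.3 CPM in PBS libraries. The part of the sums that differ between groups in the results on Myc and its companions was not tested.

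By CPM per kilobase of coding sequence, averaged over the 9 libraries, the members spanned 30.8 for Utp20, a scaffold of the small-subunit processome, to 1759 for Ncl. Ncl, which encodes nucleolin, an abundant nucleolar RNA-binding protein, ranked 25 among 12280 coding genes, and Npm1, which encodes the histone and ribosome chaperone nucleophosmin, ranked 51 at 1126 CPM per kilobase. Myc ranked 175 at 497 CPM per kilobase, above every other member but these. Nhp2, a subunit of the snoRNPs that guide pseudouridylation, and Ddx21, an RNA helicase, followed at 391 and 341 CPM per kilobase. The 3 genes called lower therefore include the pair of most abundant members, and Rrp12, at 46.5 CPM per kilobase, is among the 3 lowest.

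Myc was higher in either exosome group than in PBS cells. It had 675, 714 and 714 CPM in EKO_exo libraries, 702, 700.1 and 678 CPM in WT_exo libraries and 645, 654 and 615 CPM in PBS libraries. All 6 exosome libraries lay above all 3 PBS libraries, and the exosome groups overlapped. The log2 fold change against PBS was 0.14 ± 0.032 in EKO_exo cells (SE; adjusted p = 0.00891) and 0.12 ± 0.032 in WT_exo cells (adjusted p = 0.0228), by edgeR's quasi-likelihood test with Benjamini-Hochberg adjustment over all 14684 genes. Genes past an adjusted p of 0.05 in this test are said to be called, or to have risen or fallen. Between the exosome groups Myc differed by 0.02 on the log2 scale, with a 95% interval of -0.05 to 0.08 (adjusted p = 0.954 by the same test). In bulk RNA a change in level per cell and a change in the share of cells that carry the transcript cannot be told apart. Without EKO_exo replicates 1 and 3 the log2 fold change of Myc against PBS was 0.16. The call for EKO_exo cells was lost without EKO_exo replicate 2 (0.12, adjusted p = 0.0528) and without PBS replicate 3 (0.11, adjusted p = 0.0745). For WT_exo cells it was lost without WT_exo replicate 1 or 2 or without PBS replicate 1 or 3, with adjusted p between 0.0527 and 0.152.

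Npm1 was lower in either exosome group. It had 920.4, 937 and 916 CPM in EKO_exo libraries, 983, 954 and 968 CPM in WT_exo libraries and 1064, 1089 and 1045 CPM in PBS libraries. The 3 groups did not overlap: PBS libraries were highest and EKO_exo libraries lowest. Against PBS the log2 fold change was -0.21 ± 0.027 in EKO_exo cells (adjusted p = 1.25e-05) and -0.14 ± 0.027 in WT_exo cells (adjusted p = 0.00126, edgeR quasi-likelihood test, Benjamini-Hochberg). The direct difference between EKO_exo and WT_exo cells was -0.07 ± 0.027, with a 95% interval of -0.12 to -0.01, and did not pass the adjustment (adjusted p = 0.639, same edgeR test). Without EKO_exo replicates 1 and 3 the log2 fold change against PBS was -0.19.

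Ncl fell by nearly the same amount in both exosome groups. It had 3633, 3646 and 3551 CPM in EKO_exo libraries, 3685, 3513 and 3624 CPM in WT_exo libraries and 4138, 3932 and 3852 CPM in PBS libraries. Every exosome library was below every PBS library, and the exosome groups overlapped. The log2 fold change against PBS was -0.14 ± 0.024 in EKO_exo cells (adjusted p = 0.00043) and -0.14 ± 0.024 in WT_exo cells (adjusted p = 0.000356, edgeR quasi-likelihood test). Between EKO_exo and WT_exo cells the 95% interval of the log2 difference ran from -0.05 to 0.05. The log2 fold change against PBS was -0.12 without EKO_exo replicates 1 and 3. Because of its level, Ncl alone supplied 25.9% of the summed CPM of the 36 members in EKO_exo cells, 25.6% in WT_exo cells and 27.3% in PBS cells.

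Rrp12, whose yeast counterpart takes part in the maturation and export of pre-ribosomes, was the third member to fall. It had 173, 172 and 169 CPM in EKO_exo libraries, 170.4, 177 and 180.5 CPM in WT_exo libraries and 195, 202 and 187 CPM in PBS libraries, so all exosome libraries lay below all PBS libraries. The log2 fold change against PBS was -0.19 ± 0.042 in EKO_exo cells (adjusted p = 0.00683) and -0.15 ± 0.042 in WT_exo cells (adjusted p = 0.0361, edgeR quasi-likelihood test). Without EKO_exo replicates 1 and 3 the log2 fold change in EKO_exo cells was -0.18. Single libraries decided the call of Rrp12. In EKO_exo cells it was lost without PBS replicate 2 (adjusted p = 0.0789, edgeR). In WT_exo cells it was lost without any 1 of the WT_exo libraries, without PBS replicate 1 and without PBS replicate 2, with adjusted p between 0.059 and 0.247.

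**Figure D1:**
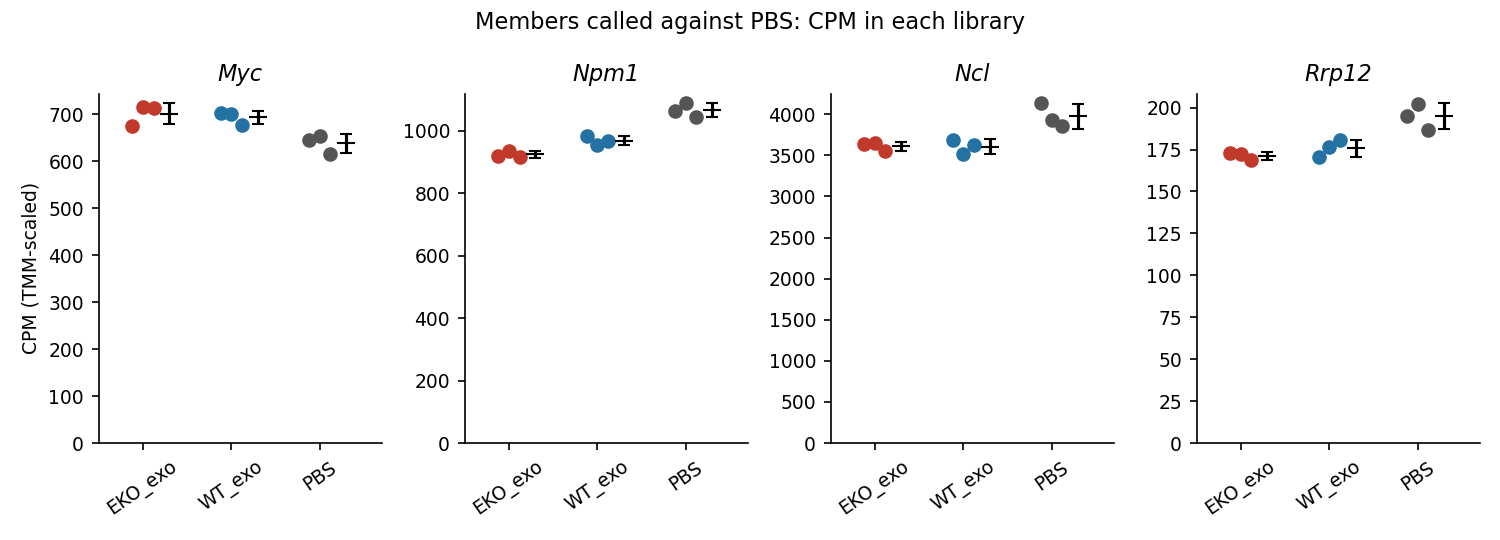
CPM of Myc, Npm1, Ncl and Rrp12 in each of the 9 libraries, by group. Points are libraries and bars mark the mean ± SD of 3 libraries; the vertical axes start at 0, so that the changes of 8.62% to 13.3% against PBS can be judged against the whole level.

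The calls have to be read against the share of all genes called. In EKO_exo cells against PBS, 1 of 36 members rose and 3 fell, which is 11.1% of the members, against 5.08% of all genes tested (2.21% higher and 2.87% lower). In WT_exo cells against PBS the same 4 members were called in the same directions, 11.1%, against 4.97% of all genes (1.83% higher and 3.14% lower). The members are abundant, however, and abundant genes are called more often. Among the 3419 genes at or above the mean level of the lowest member, Wdr12 at 74.1 CPM, 12.6% were called in EKO_exo cells (7.37% higher and 5.24% lower) and 11.8% in WT_exo cells (5.85% higher and 5.91% lower). The share of members called was close to that of these genes, which share a lower bound with the members and were not matched to them in abundance. The comparisons share the 3 PBS libraries, so the recurrence of the 4 genes is not independent support. Between EKO_exo and WT_exo cells 0 of 36 members were called by edgeR, DESeq2 or limma-voom, against 0.0341% of all genes by edgeR (0.0272% higher and 0.00681% lower). Among genes of at least 74.1 CPM that share was 0.117% (0.0877% higher and 0.0292% lower). In edgeR 1 member was higher and 4 were lower at an unadjusted p under 0.05. The share of all genes under that unadjusted p is not given here. This count and the later ones at that threshold are therefore descriptions only.

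The median log2 fold change of the 36 members was -0.01 in EKO_exo cells against PBS, 0.00 in WT_exo cells against PBS and -0.02 between EKO_exo and WT_exo cells. Over all tested genes these medians were 0.00 in each comparison. In EKO_exo cells 16 members had a positive and 20 a negative fold change against PBS, and in WT_exo cells 18 were positive and 18 negative. Against PBS, 2 members lay wholly above and 10 wholly below in EKO_exo libraries, 5.56% and 27.8% of the members, where the shares over all genes were 9.94% and 10.6%. In WT_exo libraries 6 lay above and 6 below, 16.7% each, where 10.6% and 11.6% of all genes did. Among genes at or above 74.1 CPM the shares were 18.7% above and 13.7% below in EKO_exo cells, and 19.1% above and 15.9% below in WT_exo cells. Of EKO_exo against WT_exo libraries 1 member lay above and 7 below, 2.78% and 19.4%, where 5.88% and 5.97% of all genes and 8.28% and 6.26% of genes at or above 74.1 CPM did. For the 32 members not called, the 95% intervals of the log2 fold change stayed between -0.22 and 0.22 in EKO_exo cells and between -0.21 and 0.22 in WT_exo cells. The median distance from the fold change to the end of its interval was 0.082 in either comparison, which is the precision that 3 libraries a group gave for a typical member.

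**Figure D2:**
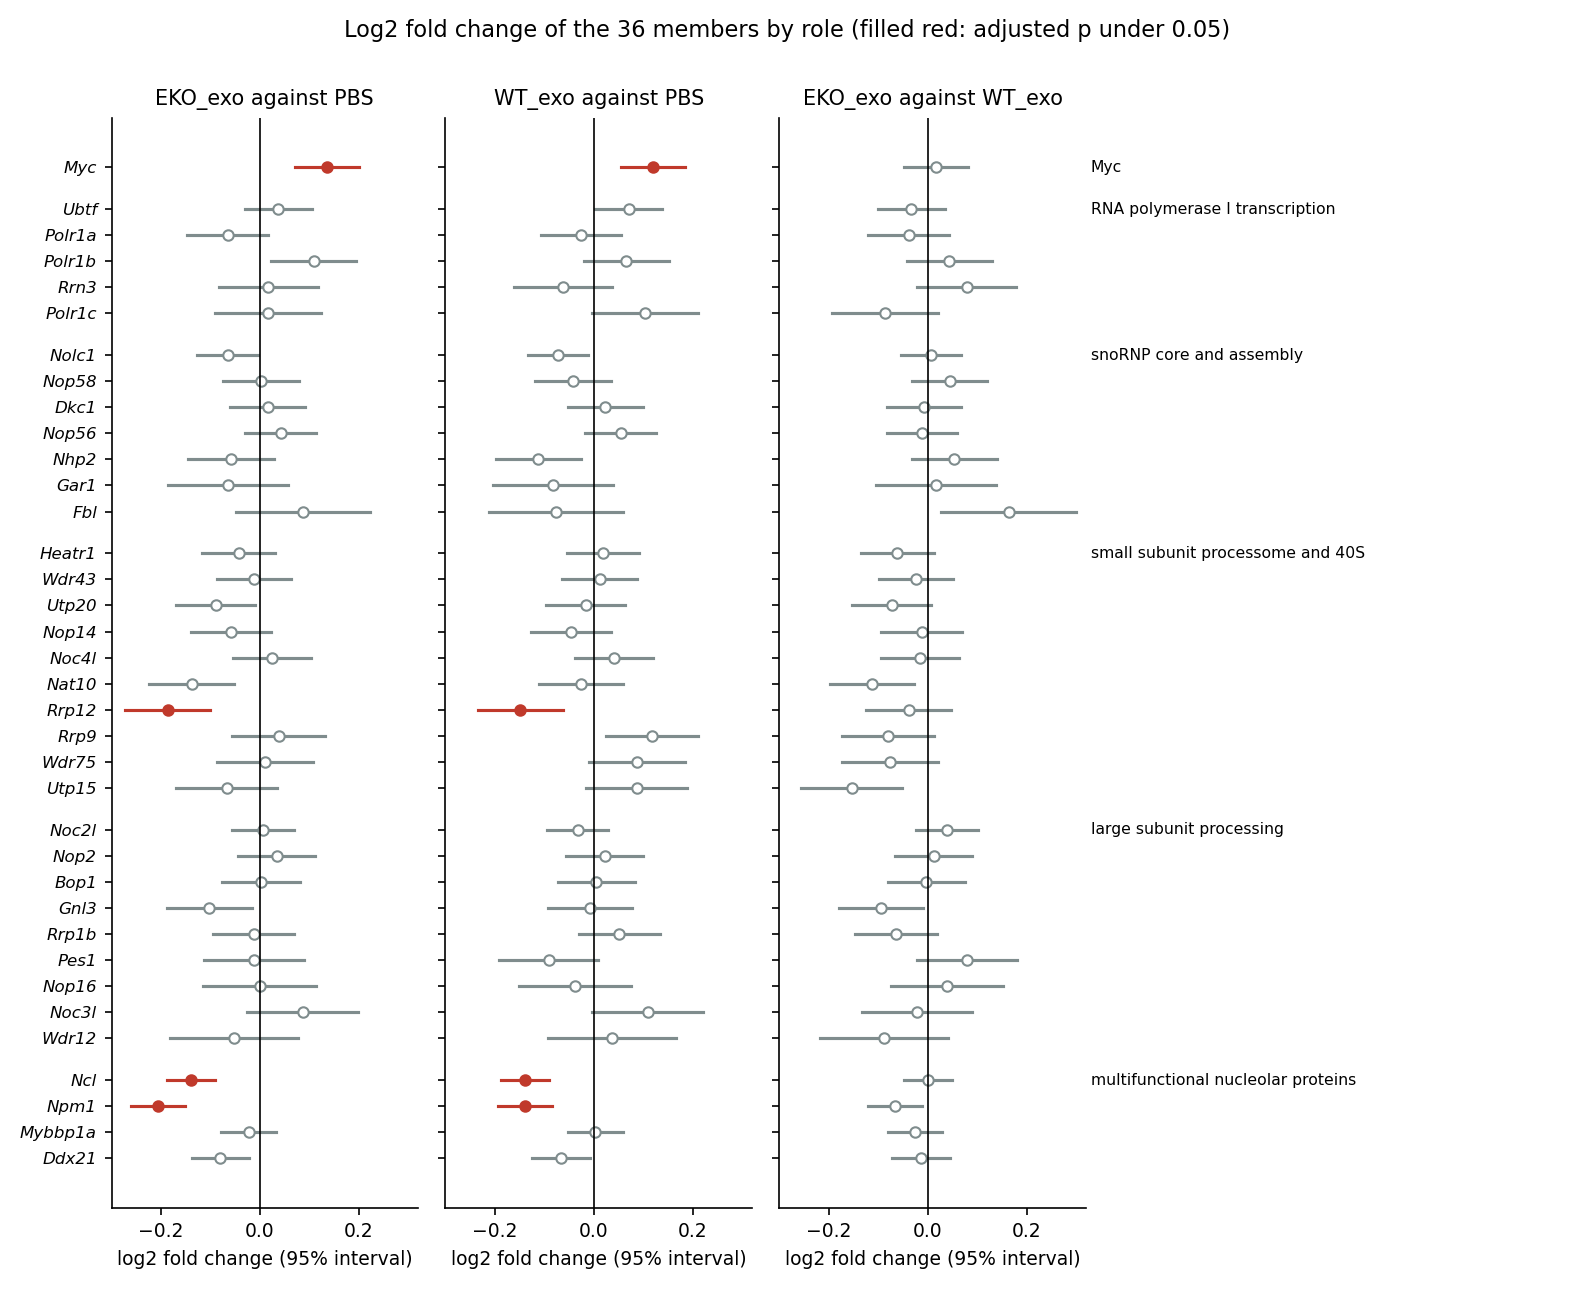
Log2 fold change of each of the 36 members with its 95% interval in EKO_exo cells against PBS, WT_exo cells against PBS and EKO_exo cells against WT_exo cells, grouped by role. Filled red points are called at an adjusted p under 0.05: Myc to the right of 0 and Npm1, Ncl and Rrp12 to the left in the comparisons with PBS, and none between the exosome groups.

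Of the 5 genes of RNA polymerase I transcription none was called in any comparison by edgeR, DESeq2 or limma-voom; in edgeR at an unadjusted p under 0.05 there was 1 (higher) in EKO_exo cells and 1 (higher) in WT_exo cells against PBS, and 0 between the exosome groups. Their median log2 fold change was 0.02 in EKO_exo cells and 0.07 in WT_exo cells against PBS. In EKO_exo cells it was 0.04 without EKO_exo replicate 1 or 2 and 0.05 without replicate 3, and in WT_exo cells it was 0.04 without WT_exo replicate 1. Ubtf, which encodes the factor that keeps the ribosomal RNA genes open, had 493, 472 and 463 CPM in EKO_exo libraries, 492, 482 and 487 CPM in WT_exo libraries and 451, 479 and 462 CPM in PBS libraries. The WT_exo libraries lay above the PBS libraries, and the EKO_exo libraries overlapped both. Polr1b, a subunit of the catalytic core, had 189, 184 and 195 CPM in EKO_exo libraries, 192, 177 and 184 CPM in WT_exo libraries and 177, 177 and 174 CPM in PBS libraries. Its EKO_exo libraries lay above the PBS libraries, with a log2 fold change of 0.11 ± 0.042 that did not pass the adjustment (adjusted p = 0.145, edgeR quasi-likelihood test). Polr1a, the largest subunit, Polr1c, a subunit shared with RNA polymerase III, and Rrn3, the initiation factor that recruits the polymerase, ranged from -0.06 to 0.02 in EKO_exo cells and from -0.06 to 0.10 in WT_exo cells.

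The 7 snoRNP genes were not called in any comparison by any of the 3 tools either. In edgeR at an unadjusted p under 0.05 there was 1 (lower) in EKO_exo cells and 2 (lower) in WT_exo cells against PBS. Between the exosome groups there was 1 (higher). The median log2 fold change of the 7 against PBS was 0.00 in EKO_exo and -0.07 in WT_exo cells. In EKO_exo cells 4 were positive and 3 negative, and in WT_exo cells 2 were positive and 5 negative. Nolc1, a chaperone of snoRNPs and the most abundant gene of the group by CPM, had 605, 581 and 607 CPM in EKO_exo libraries, 598, 598 and 590.4 CPM in WT_exo libraries and 628, 636 and 613 CPM in PBS libraries. All exosome libraries were below all PBS libraries, at a log2 fold change of -0.07 in either group (adjusted p = 0.248 in EKO_exo and 0.208 in WT_exo cells, edgeR). Nhp2 had 185, 174 and 179 CPM in EKO_exo libraries, 174, 166 and 178 CPM in WT_exo libraries and 186, 189.9 and 184 CPM in PBS libraries. Its WT_exo libraries lay below the PBS libraries and its EKO_exo libraries overlapped them, and the log2 fold change in WT_exo cells was -0.11 ± 0.042 (adjusted p = 0.145, edgeR). Fbl, the methyltransferase fibrillarin, had the widest intervals of all members: 87.1, 83.4 and 72.7 CPM in EKO_exo libraries overlapped 67.6, 73.8 and 75.7 CPM in WT_exo libraries and 75.3, 80.3 and 73.3 CPM in PBS libraries. Nop56 and Nop58, core proteins of the methylation-guide snoRNPs, Dkc1, the pseudouridine synthase, and Gar1, its partner, lay between -0.06 and 0.04 in EKO_exo cells and between -0.08 and 0.05 in WT_exo cells.

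Among the 10 genes of small-subunit processing Rrp12 fell in either exosome group and no other member was called. Their median log2 fold change was -0.05 in EKO_exo cells and 0.02 in WT_exo cells against PBS. Between EKO_exo and WT_exo cells all 10 had a negative log2 fold change, with a median of -0.07 and a range of -0.15 to -0.01, and 0 were called; 2 of them, Utp15 and Nat10, were under an unadjusted p of 0.05. Over all genes that comparison had a median of 0.00. The 39 other small-subunit genes did not share this direction: 19 were positive and 20 negative, with a median of 0.00.

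Nat10, which acetylates cytidines of the small-subunit ribosomal RNA, had 173, 179.5 and 167 CPM in EKO_exo libraries, 191, 180.3 and 190.2 CPM in WT_exo libraries and 189.8, 190.4 and 191 CPM in PBS libraries. The EKO_exo libraries lay below both other groups. Against PBS the log2 fold change of -0.14 ± 0.042 in EKO_exo cells missed the threshold (adjusted p = 0.051, edgeR quasi-likelihood test), and DESeq2 (adjusted p = 0.0161) and limma-voom (adjusted p = 0.0406) called it. Without EKO_exo replicates 1 and 3 the log2 fold change of Nat10 was -0.09. Utp15, a subunit of the complex that binds the precursor first, had 107, 109 and 112 CPM in EKO_exo libraries, 125, 113 and 127 CPM in WT_exo libraries and 115, 114 and 114 CPM in PBS libraries. It was lower in EKO_exo than in WT_exo libraries without overlap, by -0.15 ± 0.05 on the log2 scale (adjusted p = 0.468, edgeR).

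Heatr1, another subunit of that complex and the most abundant small-subunit gene by CPM, had 319, 328 and 318 CPM in EKO_exo libraries, 329.5, 336 and 341 CPM in WT_exo libraries and 334, 317 and 343 CPM in PBS libraries. EKO_exo libraries lay just below WT_exo libraries, and PBS libraries overlapped both. Wdr43 and Wdr75, of the same complex, Utp20, Rrp9, a protein of the U3 snoRNP, and Nop14 and Noc4l, which act together in the processome, lay between -0.09 and 0.04 in EKO_exo cells and between -0.05 and 0.12 in WT_exo cells.

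None of the 9 genes of large-subunit processing was called in any comparison by any of the 3 tools; in edgeR at an unadjusted p under 0.05 there was 1 (lower) in EKO_exo cells and 0 in WT_exo cells against PBS, and 1 (lower) between the exosome groups. Their median log2 fold change was 0.00 in EKO_exo cells and 0.00 in WT_exo cells against PBS. Noc2l, the most abundant of them by CPM, had 528, 516 and 521 CPM in EKO_exo libraries, 512, 502 and 508 CPM in WT_exo libraries and 521, 530.4 and 507 CPM in PBS libraries. The EKO_exo libraries lay above the WT_exo libraries, and PBS libraries overlapped both. Noc2l shares 598 exonic bases with Samd11 on the opposite strand, and as the strand setting of the counting is not given its counts are uncertain to that extent. Gnl3, the nucleolar GTP-binding protein nucleostemin, had 201, 204 and 200.5 CPM in EKO_exo libraries, 226, 207 and 214 CPM in WT_exo libraries and 226, 214 and 209.6 CPM in PBS libraries. EKO_exo libraries were below both other groups, by -0.10 ± 0.042 against PBS (adjusted p = 0.182) and -0.09 ± 0.042 against WT_exo cells (adjusted p = 0.664, edgeR). Pes1, Bop1 and Wdr12, which form 1 complex, Nop2, a methyltransferase of the large-subunit RNA, Nop16, Noc3l and Rrp1b lay between -0.05 and 0.09 in EKO_exo cells and between -0.09 and 0.11 in WT_exo cells.

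Of the 4 nucleolar proteins with several roles, Npm1 and Ncl fell in either exosome group and the other 2 were not called. Of those, Ddx21 had 872, 852 and 829 CPM in EKO_exo libraries, 879.8, 842 and 856 CPM in WT_exo libraries and 914, 883 and 901 CPM in PBS libraries. All its exosome libraries were below all PBS libraries, but the log2 fold changes of -0.08 in EKO_exo and -0.07 in WT_exo cells were not called (adjusted p = 0.112 in EKO_exo and 0.237 in WT_exo cells, edgeR). Mybbp1a, a nucleolar MYB-binding protein, overlapped between all groups, with 952 to 993 CPM in EKO_exo, 973 to 1005 CPM in WT_exo and 973 to 998 CPM in PBS libraries.

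Set beside Myc, the summed CPM of the role groups stayed near the PBS level or below it. Myc averaged 9.86% above PBS in EKO_exo cells and 8.62% above it in WT_exo cells. RNA polymerase I genes summed to 1180.3 ± 20.5 CPM in EKO_exo, 1192 ± 21.6 CPM in WT_exo and 1164 ± 9.28 CPM in PBS libraries (SD, n = 3 each), which is 1.41% above PBS in EKO_exo and 2.41% above it in WT_exo cells. The snoRNP genes summed to 1909 ± 8.67 CPM in EKO_exo, 1883 ± 15.5 CPM in WT_exo and 1931 ± 45 CPM in PBS libraries. The large-subunit genes summed to 1838 ± 7.1 CPM in EKO_exo, 1839 ± 24.2 CPM in WT_exo and 1843 ± 33.9 CPM in PBS libraries. Against PBS the snoRNP sum changed by -1.14% in EKO_exo and -2.47% in WT_exo cells, and the large-subunit sum by -0.295% in EKO_exo and -0.204% in WT_exo cells. Small-subunit genes summed to 1959 ± 34.2 CPM in EKO_exo, 2039 ± 31.1 CPM in WT_exo and 2033 ± 19.1 CPM in PBS libraries. Against PBS this sum changed by -3.66% in EKO_exo and 0.293% in WT_exo cells. The highest EKO_exo library, at 1998 CPM, lay below the lowest WT_exo (2004 CPM) and PBS (2022 CPM) libraries. The multifunctional proteins, a sum made up mostly of Ncl, stood at 6355 ± 56.4 CPM in EKO_exo, 6421 ± 127 CPM in WT_exo and 6924 ± 166 CPM in PBS libraries, a change of -8.21% in EKO_exo cells and -7.25% in WT_exo cells.

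**Figure D3:**
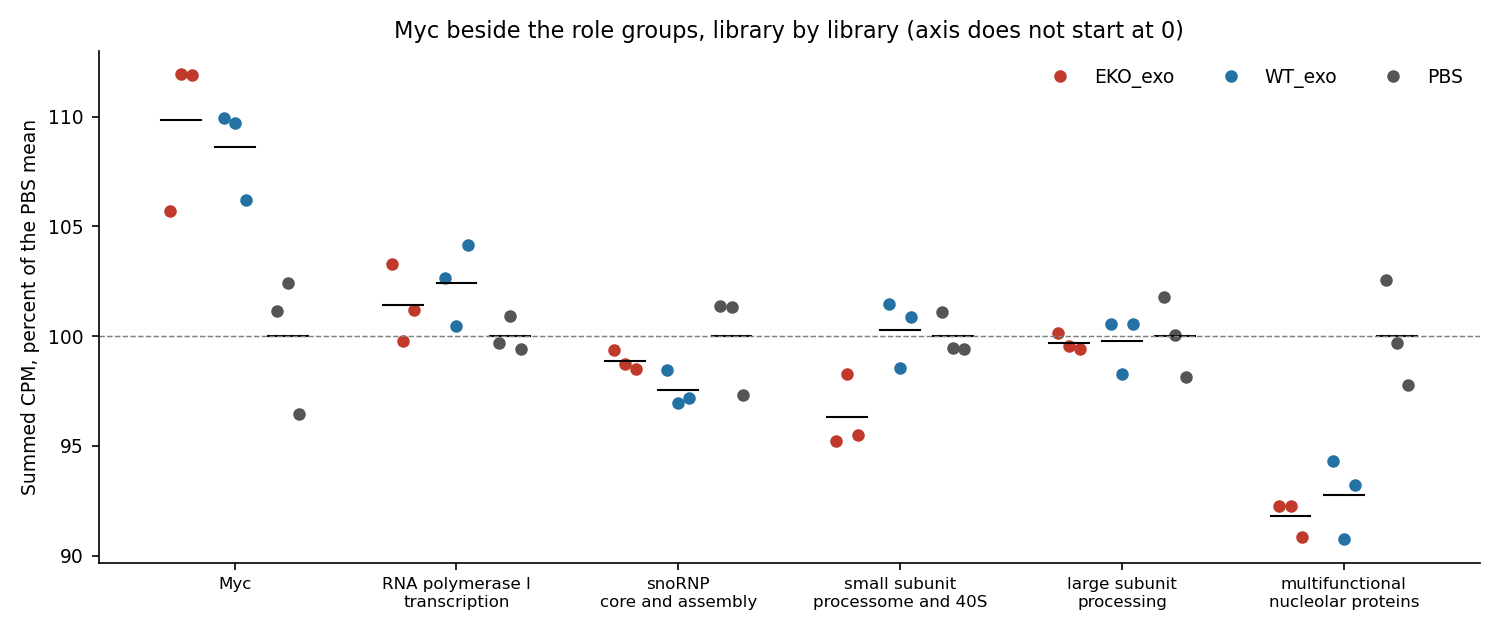
Myc and the summed CPM of each role group per library, as a percent of the mean of the PBS libraries; points are libraries, coloured by group, and the vertical axis does not start at 0. Myc lies above the PBS libraries in all 6 exosome libraries, the multifunctional proteins lie below them, and the other sums stay within a few percent.

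Expressed per Myc transcript, most members were lower with exosomes. The ratio of a member's CPM to that of Myc in the same library was lower in all EKO_exo than in all PBS libraries for 27 of the 35 other members (77.1%), and lower in all WT_exo than in all PBS libraries for 23 (65.7%); it was higher without overlap for 0 in either. Over all genes the shares were 28.2% in EKO_exo and 28.1% in WT_exo cells, and among genes at or above 74.1 CPM they were 47% in EKO_exo and 49.7% in WT_exo cells, since the rise of Myc itself lowers every such ratio. The Npm1 to Myc ratio was 1.32 ± 0.041 in EKO_exo, 1.40 ± 0.033 in WT_exo and 1.67 ± 0.025 in PBS libraries (SD, n = 3 each). This ratio is given with no test, since Myc rose and Npm1 fell in both comparisons. Ncl stood at 5.15 ± 0.211 transcripts' CPM per CPM of Myc in EKO_exo, 5.21 ± 0.17 in WT_exo and 6.23 ± 0.2 in PBS libraries. Between EKO_exo and WT_exo libraries the ratio was lower without overlap for 5 of 35 members (14.3%), against 6.83% of all genes and 6.96% of those at or above 74.1 CPM.

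Promoter windows from RefSeq (build GRCm38.p6, 250 bases before to 50 after an annotated start) were found for 31 of the 36 members; Myc, Npm1, Rrp12, Bop1 and Fbl had none. The canonical MYC and MAX site CACGTG, which reads the same on both strands, was in the windows of 6 of the 31 (19.4%), against 11.7% of the 10019 tested genes with a window and 8.09% of all 27025 genes with one. The sites are shown because the list sets Myc beside its presumed targets; each line is 5′ to 3′ on the gene's strand, with CACGTG in capitals.
Nop2 (chr6:125131811-125131840, + strand): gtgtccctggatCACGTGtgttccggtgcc
Utp20 (chr10:88826765-88826789, - strand): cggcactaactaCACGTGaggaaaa
Pes1 (chr11:3963965-3963994, + strand): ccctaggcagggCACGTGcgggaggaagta
Mybbp1a (chr11:72441355-72441376, + strand): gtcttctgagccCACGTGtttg
Rrn3, upstream site (chr16:13780472-13780501, + strand): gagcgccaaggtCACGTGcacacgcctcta
Rrn3, site nearer the start (chr16:13780639-13780668, + strand): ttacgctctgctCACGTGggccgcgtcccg
Wdr43 (chr17:71616220-71616249, + strand): cgcccgggcgaaCACGTGgctgccgcggag
The motif begins 60 bases before the annotated start in Nop2 and, in Rrn3, 215 and 48 bases before it; in Utp20, Pes1, Mybbp1a and Wdr43 it lies past the start. None of these 6 genes was called in any comparison.

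Of the 4 called members only Ncl, on the minus strand of chromosome 1, had a window. The 250 bases before its start are shown because it is the most abundant member and fell in either exosome group; capitals mark the 3 GC boxes (GGGCGG on either strand, here read as CCGCCC).
Ncl (chr1:86359456-86359705, - strand): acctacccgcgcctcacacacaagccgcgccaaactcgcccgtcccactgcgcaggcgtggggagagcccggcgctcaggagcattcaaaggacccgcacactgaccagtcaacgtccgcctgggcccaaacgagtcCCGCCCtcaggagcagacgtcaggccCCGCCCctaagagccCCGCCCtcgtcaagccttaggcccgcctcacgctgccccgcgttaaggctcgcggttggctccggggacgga
These bases are 69.6% G or C. A GC box was in the windows of 77.4% of the members, against 67.8% of tested genes and 38.2% of all genes with a window.

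The members also differ in what their loci hold. By the GENCODE M21 annotation 6 of the 36 carry snoRNA genes inside them: Nop56 carries 5, Nop58 carries 4, Wdr43, Gnl3 and Ncl carry 3 each and Dkc1 carries 1. Of these 6 hosts Ncl was called and the other 5 were not. Npm1 (chromosome 11, 33152287 to 33163206, minus strand) has 4 pseudogenes with stretches of at least 200 bases at 95% identity or more. Together they held 253 to 420 counts per library, at most 1.37% of those of Npm1, where Npm1 itself changed by -13.3% in EKO_exo and -9.19% in WT_exo cells. Myc (chromosome 15, 61985391 to 61990374, plus strand), Ncl (chromosome 1, 86344719 to 86359400, minus strand) and Rrp12 (chromosome 19, 41862851 to 41896173, minus strand) had no such copy.

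The wider pathway was read from 160 further genes, of which 159 were tested (the Myc paralogue Mycl fell under the filter). Of 113 other genes of ribosome biogenesis, 0 were called in EKO_exo cells against PBS by edgeR and 2 (1.77%) rose in WT_exo cells, against 5.08% of all genes called in EKO_exo and 4.97% in WT_exo cells. At an unadjusted p under 0.05 edgeR had 5 higher and 7 lower in EKO_exo cells and 7 higher and 8 lower in WT_exo cells, with no share of all genes to set beside them. DESeq2 called 3 of them in EKO_exo cells (Twistnb, Ppan and Spata5, which fall outside the naming rule) and limma-voom 0. In WT_exo cells DESeq2 called 4 (Taf1c, Mdn1, Nol8 and Urb1) and limma-voom 3 (the same without Urb1). The shares of all genes that these 2 tools called against PBS are not given here. Their counts, here and in the lists below, cannot be set against such a share. By role, 0 of 15 other polymerase I genes, 0 of 12 snoRNP genes, 0 of 39 small-subunit genes and 0 of 47 large-subunit genes were called by edgeR in EKO_exo cells. The riser among large-subunit genes in WT_exo cells was Mdn1, the AAA-type ATPase that strips assembly factors from the pre-large subunit. Mdn1 had 672, 658 and 648 CPM in EKO_exo libraries, 735, 688 and 708 CPM in WT_exo libraries and 629.5, 619 and 641 CPM in PBS libraries. The 3 groups did not overlap, with WT_exo libraries highest. In WT_exo cells the log2 fold change was 0.17 ± 0.03 (adjusted p = 0.000521), and the direct difference of -0.11 ± 0.03 between EKO_exo and WT_exo cells was not called (adjusted p = 0.423, edgeR quasi-likelihood test), while DESeq2 called it (adjusted p = 0.0459). The other riser in WT_exo cells was Taf1c, a subunit of the polymerase I selectivity factor, with 50.6, 54.2 and 57.7 CPM in WT_exo libraries and 41.7, 49.4 and 44.0 CPM in PBS libraries (0.27 ± 0.075, adjusted p = 0.0323, edgeR). That call was lost without WT_exo replicate 2 or 3 or PBS replicate 1 or 3, with adjusted p up to 0.22.

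MXD proteins share MAX with MYC and mostly oppose it at E-boxes. Of 12 tested genes for MYC's dimer partners, the MXD family and related factors, 3 rose and 0 fell in EKO_exo cells against PBS. In WT_exo cells 1 rose and 0 fell. These calls are 25% of the tested genes of the list in EKO_exo and 8.33% in WT_exo cells. Over all genes 2.21% rose in EKO_exo and 1.83% in WT_exo cells. Among genes at or above 74.1 CPM 7.37% rose in EKO_exo and 5.85% in WT_exo cells, though Mxd4 lay below that level. Like the members, this list was chosen with earlier results of these data known. The list went both ways, with log2 fold changes from -0.45 to 0.46 in EKO_exo and from -0.63 to 0.36 in WT_exo cells. At an unadjusted p under 0.05 edgeR had 4 higher and 0 lower in EKO_exo cells, and 4 higher and 1 lower in WT_exo cells. In WT_exo cells DESeq2 called 3 higher (Max, Mxd4 and Mlxip) and limma-voom 1. Max, the partner MYC needs to bind DNA, had 341, 321 and 330.1 CPM in EKO_exo libraries, 314, 313 and 319 CPM in WT_exo libraries and 288, 305 and 284 CPM in PBS libraries. The 3 groups did not overlap, and the log2 fold change was 0.18 ± 0.036 in EKO_exo cells (adjusted p = 0.0026) and 0.11 ± 0.036 in WT_exo cells (adjusted p = 0.0778, not called, edgeR). Mxd4, a MAX-binding repressor, had 55.6, 43.5 and 49.1 CPM in EKO_exo libraries, 47.8, 40.4 and 49.7 CPM in WT_exo libraries and 34.7, 38.4 and 34.7 CPM in PBS libraries. All its exosome libraries lay above all PBS libraries, at 0.46 ± 0.09 in EKO_exo (adjusted p = 0.00162) and 0.36 ± 0.089 in WT_exo cells (adjusted p = 0.0155, edgeR). Mnt, another repressor that pairs with MAX, had 87.9, 85.5 and 91.0 CPM in EKO_exo libraries, 78.5, 88.1 and 81.4 CPM in WT_exo libraries and 73.8, 76.0 and 77.3 CPM in PBS libraries, and rose in EKO_exo cells (0.22 ± 0.057, adjusted p = 0.0203, edgeR). Its EKO_exo libraries lay above its PBS libraries and overlapped the WT_exo libraries. None of the 3 was called between EKO_exo and WT_exo cells by edgeR, DESeq2 or limma-voom. Without EKO_exo replicates 1 and 3 the log2 fold changes against PBS were 0.14 for Max, 0.27 for Mxd4 and 0.18 for Mnt. Each was smaller than with all libraries. Mnt lost its call in EKO_exo cells without EKO_exo replicate 3 and without PBS replicate 1 or 2 (adjusted p from 0.0776 to 0.11, edgeR). Mxd4 in WT_exo cells lost its call without WT_exo replicate 1 or 3 or PBS replicate 1 or 3 (adjusted p from 0.0738 to 0.132, edgeR).

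MYC target genes outside ribosome biogenesis were read from a list of 34. Of these, 1 rose and 7 fell in EKO_exo cells and 1 rose and 6 fell in WT_exo cells against PBS, with median log2 fold changes of -0.05 in EKO_exo and -0.06 in WT_exo cells. These calls are 23.5% of the list in EKO_exo and 20.6% in WT_exo cells, against 5.08% of all genes and 12.6% of genes at or above 74.1 CPM in EKO_exo cells and 4.97% and 11.8% in WT_exo cells. The list was chosen with earlier results of these data known, so its higher share is a description and not independent support. Without PBS replicate 1, and likewise without PBS replicate 2, 1 gene was called lower in EKO_exo and 1 in WT_exo cells. Leaving out WT_exo replicate 1, 2 or 3 left 2 to 3 called lower in WT_exo cells. In EKO_exo cells, leaving out EKO_exo replicate 1 left 3 and leaving out WT_exo replicate 2 left 4. The replicate block left 4 in either comparison. The gene that rose in both was Ccnd2, which encodes cyclin D2, with 1651, 1799 and 1761 CPM in EKO_exo, 1733, 1769 and 1731 CPM in WT_exo and 1639, 1603 and 1548 CPM in PBS libraries. Its exosome libraries all lay above its PBS libraries, at a log2 fold change of 0.12 ± 0.028 in EKO_exo (adjusted p = 0.00838) and 0.13 ± 0.028 in WT_exo cells (adjusted p = 0.0052, edgeR). Hspd1, the mitochondrial chaperonin, had 473, 438 and 455 CPM in EKO_exo libraries, 474, 439 and 457 CPM in WT_exo libraries and 554, 512 and 496 CPM in PBS libraries, a log2 fold change of -0.19 ± 0.039 in either group (adjusted p = 0.00242 in EKO_exo and 0.00275 in WT_exo cells, edgeR). Cdk4, the kinase that cyclin D2 activates, fell in both as well, with 305, 305 and 319 CPM in EKO_exo, 294, 309 and 316 CPM in WT_exo and 343, 354 and 333 CPM in PBS libraries. Its log2 fold change was -0.15 ± 0.037 in EKO_exo (adjusted p = 0.0139) and -0.17 ± 0.037 in WT_exo cells (adjusted p = 0.00582, edgeR), and no exosome library reached a PBS library. Set, a histone chaperone, and Cad, an enzyme of pyrimidine synthesis, fell in EKO_exo cells by 0.15 on the log2 scale for Set (adjusted p = 0.0162) and 0.11 for Cad (adjusted p = 0.0203, edgeR). Odc1, the first enzyme of polyamine synthesis, and Paics, an enzyme of purine synthesis, fell in WT_exo cells by 0.14 for Odc1 (adjusted p = 0.0178) and 0.16 for Paics (adjusted p = 0.0183, edgeR). In EKO_exo cells Odc1 stood at -0.09 and Paics at -0.12 against PBS, and in WT_exo cells Set stood at -0.10 and Cad at -0.07, all uncalled. Between EKO_exo and WT_exo cells 0 of these 34 genes were called by edgeR, DESeq2 or limma-voom; in edgeR 3 were higher and 1 was lower at an unadjusted p under 0.05. Without EKO_exo replicates 1 and 3 the log2 fold change against PBS was -0.17 for Cdk4, -0.12 for Set and -0.10 for Cad. It was -0.20 for Nme2, -0.08 for Tcp1 and -0.12 for Gart, against -0.27, -0.11 and -0.12 with all libraries. Single libraries ended several calls. Those of Nme2 and Gart in EKO_exo cells were lost without EKO_exo replicate 2 (adjusted p = 0.0514 for Nme2 and 0.0841 for Gart, edgeR). The least stable calls in EKO_exo cells were those of Nme2, Gart and Tcp1, each lost in the 2-group fit and with the replicate block. In WT_exo cells they were those of Trap1, lost in 9 of 19 alternatives, and Pa2g4, lost in 7. In EKO_exo cells Ccnd2 was no longer called when EKO_exo replicate 2 or PBS replicate 3 was left out, Cdk4 without PBS replicate 1 or 2, Set without EKO_exo replicate 3 or PBS replicate 1 or 2, and Cad without EKO_exo replicate 1 or PBS replicate 1 or 2 (adjusted p from 0.0508 to 0.124). In WT_exo cells Ccnd2 lost its call without WT_exo replicate 2, Hspd1 without PBS replicate 1, and Cdk4 without WT_exo replicate 1 or PBS replicate 2. Odc1 lost it there without WT_exo replicate 1 or 2 or PBS replicate 1 or 2, and Paics without WT_exo replicate 2 or 3 or PBS replicate 1 or 2 (adjusted p over these 5 genes from 0.0508 to 0.148).

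**Figure D4:**
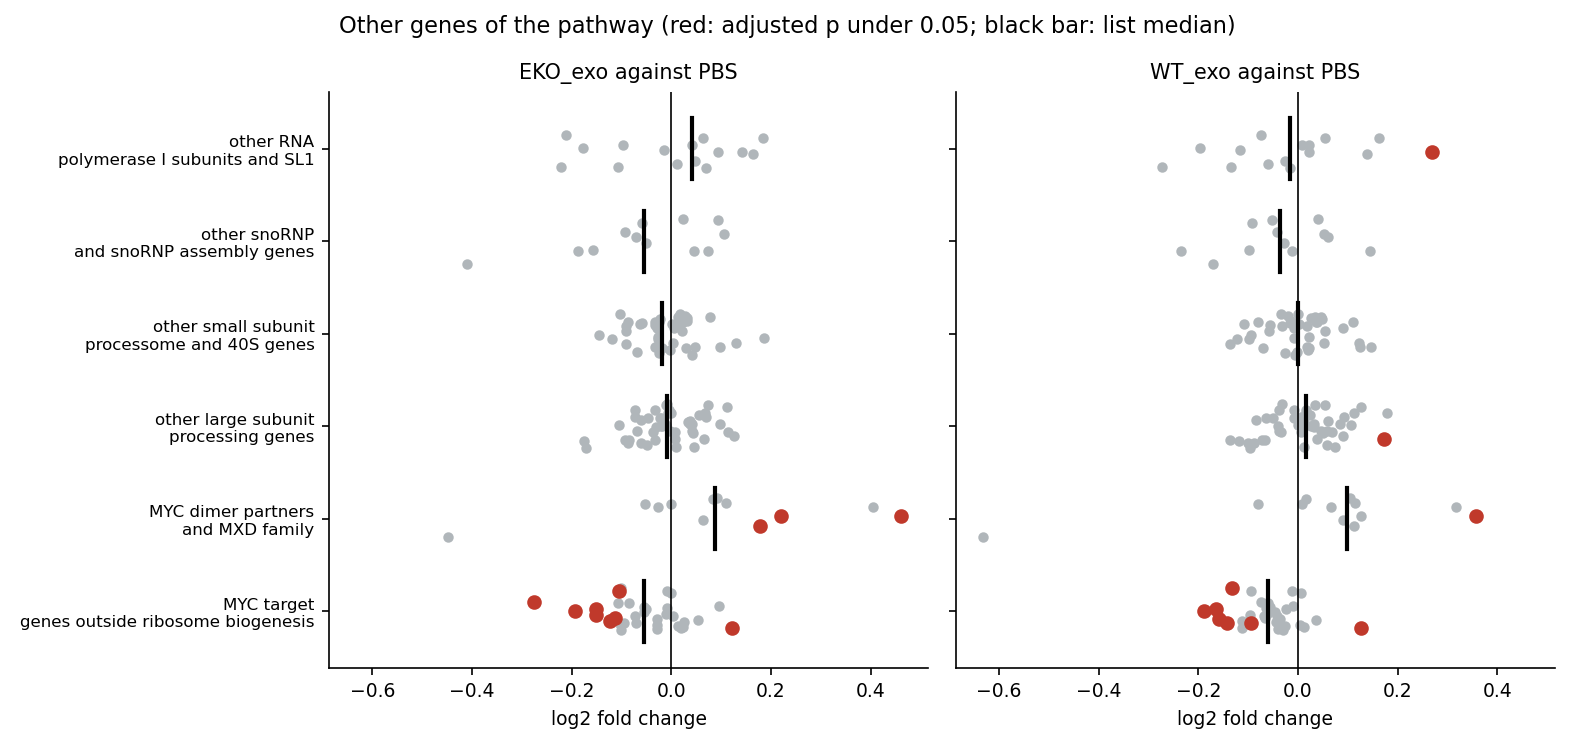
Log2 fold change of the other pathway genes in EKO_exo cells against PBS (left) and WT_exo cells against PBS (right), by list. Each point is a gene, red points are called at an adjusted p under 0.05 and the black bar is the median of the list. In EKO_exo cells 3 genes of the list of MYC partners and the MXD family are red to the right of 0. There 7 of 8 red MYC targets lie to the left. In WT_exo cells Mxd4, Taf1c and Mdn1 are red to the right and 6 of 7 red MYC targets lie to the left.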

How the data were processed

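The deposited values are raw counts per gene. STAR 2.7.5c and the build GRCm38 are named in the submitters' processing notes; how reads were counted, on which strand and with which annotation is not given in the sources used here. Symbols were matched by Ensembl identifier to GENCODE M21. In R 4.3.3 with edgeR 4.0.16, genes passed filterByExpr (minimum count 10, minimum total 15), libraries were scaled by TMM, 1 model with the 3 groups was fitted to all 9 libraries, and groups were compared by the quasi-likelihood F test with Benjamini-Hochberg adjustment over 14684 genes (threshold 0.05). CPM are relative to TMM-scaled library sizes. Every member had at least 1841 counts in every library. Pairs of replicates differed beyond sampling noise (chi-square 5.02 to 9.08 per degree of freedom). Alternatives were DESeq2 1.42.0, limma-voom (limma 3.58.1), other scalings and filters, a 2-group fit, a replicate block and leaving out libraries; the removal of EKO_exo replicates 1 and 3 together was chosen after seeing the data. The scripts were tested on simulated counts in which genes of at least 50 CPM were changed. Of genes changed 1.1-fold, 22% were called in EKO_exo and 20% in WT_exo cells against PBS. Of those changed 1.25-fold, 92.7% and 96% were called. Unchanged genes made up 7.27% of the calls in EKO_exo and 4.63% in WT_exo cells. In these simulated counts changes of 1.1-fold were thus mostly missed. Fewer genes were changed there than were called in the data, so these shares need not hold for the members.

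The members and the gene lists were chosen with earlier results of these data known. Values per library are given for Myc and each called member and, in each role group, for the member with the highest mean CPM and the one with the smallest unadjusted p; of other lists, up to 4 called genes per comparison are named by smallest p. Nat10, Fbl, Utp15, Ddx21, Mybbp1a, Cad and Paics were added after their values were seen. Dendritic cell, neutrophil and NK cell, erythroid and platelet markers summed to at most 12.9 CPM per list in any library, with Hbb-bs, Hba-a1, Gp9 and Klra8 at 0.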

Additional observations from a re-analysis of the deposited data

How the results depend on the processing

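Npm1 and Ncl were called lower in both comparisons with PBS under every alternative that kept at least 2 libraries in each group, and no called gene reversed. Leaving out 1 library at a time left 0 to 1 members called higher in EKO_exo cells and 0 to 1 in WT_exo cells against PBS, and 2 to 4 lower in EKO_exo and 2 to 3 lower in WT_exo cells; the members' median in EKO_exo cells ran from -0.031 to 0.0069. Over all genes these omissions left 375 to 687 calls in EKO_exo cells (main count 746), 399 to 870 in WT_exo cells (730) and 0 to 6 between the exosome groups (5). Without EKO_exo replicates 1 and 3 the counts were 249 in EKO_exo cells against PBS, 973 in WT_exo cells against PBS and 0 between the exosome groups. Between the exosome groups all-gene calls were 28 with no filter, 9 at a mean of at least 5 CPM, 32 by DESeq2 and 1 with the replicate block; the cause was not tested. Nat10 was called lower in EKO_exo cells under 6 alternatives. No pairing by replicate number was seen: deviations of same-numbered libraries correlated at -0.07 to 0.019, those of others at -0.09 to 0.142, and not every library correlated best with its own number. With 3 libraries a group a weak pairing could go unseen. With the replicate block 1 member was higher and 3 lower in EKO_exo cells, and 1 was higher and 2 lower in WT_exo cells, where Rrp12 was not called (adjusted p = 0.0576, edgeR).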
